A study of Homo sapiens with 5 samples.

Results

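The data described here are the mRNA levels of 10 genes of the cytosolic HSP70, HSP90 and J-domain chaperone system in the established human cell line SAS, which derives from a squamous cell carcinoma of the tongue. The genes were taken by symbol, namely HSPA1A, HSPA1B, HSPA4, HSPA4L, HSPA8, HSPH1, HSP90AA1, HSP90AB1, DNAJA1 and DNAJB1, and all 10 were found among the 15187 genes that the 2 deposited tables share and among the 13123 genes tested. Cells carried short hairpin RNA against CCT2 (shCCT2, 3 libraries) or control short hairpin RNA (shCtrl, 2 libraries). CCT2 encodes a subunit of CCT, the ring-shaped chaperonin that folds actin and tubulin. The libraries came in 2 tables. Set A held shCCT2 1, shCCT2 2 and shCtrl 1, and set B held shCCT2 3 and shCtrl 2. Each shCCT2 library was set against the shCtrl of its own table. The labels give neither the hairpin sequences nor whether separate cultures were used, so the spread that the p-values rest on may be technical. In such bulk samples, fewer cells that express a gene and less of its mRNA per cell cannot be told apart.

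HSP70 proteins bind exposed hydrophobic stretches of unfolded proteins and release them in cycles driven by ATP. J-domain proteins deliver clients and trigger ATP hydrolysis by HSP70, and nucleotide exchange factors of the HSP110 family reset the cycle. HSP70 can pass clients on to HSP90, which completes the maturation of kinases and steroid receptors, or to CCT. In stressed cells the transcription factor HSF1 raises many of these genes together by binding heat shock elements, inverted repeats of the unit GAA.

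Heat shock elements near the starts of the 10 genes are shown because they are the sequence feature the family is known to share. In RefSeq's promoter table (GRCh38.p14), all 10 genes matched, with 17 annotated starts. The 250 bases before each start were searched on both strands for 3 adjoining units, GAANNTTCNNGAA or its reverse complement TTCNNGAANNTTC, and for 2 units, GAANNTTC or TTCNNGAA, each its own reverse complement. A run of 3 units holds overlapping runs of 2. The capitals below mark the match within 29 bases, and the number is the position of its first base relative to the start. Where a gene has several starts, they are numbered as the table lists them. The list leaves out the 2-unit run of HSPA4L (start 2, -170) and a separate 2-unit run of HSP90AA1 (start 2, -68).
HSP90AA1, start 2, -88, chr14:102087112-102087140, minus strand: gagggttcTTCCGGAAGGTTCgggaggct
HSP90AB1, start 3, -165, chr6:44247770-44247798, plus strand: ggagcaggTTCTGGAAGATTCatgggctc
HSP90AB1, start 3, -112, chr6:44247823-44247851, plus strand: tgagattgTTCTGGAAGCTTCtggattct
HSPA8, -230, chr11:123062346-123062374, minus strand: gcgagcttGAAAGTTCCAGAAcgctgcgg
HSPA8, -55, chr11:123062171-123062199, minus strand: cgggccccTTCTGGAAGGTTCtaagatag
HSPA1A, -106, chr6:31815427-31815455, plus strand: gaaaaccctgGAATATTCccgacctggca
HSPA1B, -105, chr6:31827623-31827651, plus strand: gaaacccctgGAATATTCccgacctggca
DNAJA1, -198, chr9:33025065-33025093, plus strand: aagggctccaGAAGATTCcacgagcgccg
DNAJB1, start 2, -77, chr19:14518456-14518484, minus strand: gggcggggcgGAAGGTTCtggagggggct
DNAJB1, start 2, -47, chr19:14518426-14518454, minus strand: gcgggctctgGAAGCTTCcgccggacggg

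Runs of 3 units stood before at least 1 start of 3 of the 10 genes, HSP90AA1, HSP90AB1 and HSPA8. The share with such a run was 0.557% of all 27305 genes in the table and 0.441% of its 35116 windows. For HSP90AB1 the runs stood before start 3 alone, which lies downstream of starts 1 and 2. For HSP90AA1 the run stood before start 2 alone, downstream of start 1. Runs of 2 units stood before at least 1 start of 8 of the 10 genes, HSPA4L among them. That compares with 14.0% of all genes and 11.6% of all windows. Neither HSPA4 nor HSPH1 held these letters in the windows searched. A match of letters does not show that a factor binds there.

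The library totals lay between 16913600 and 18156600 expected counts. CCT2 stood at 296.1, 272.4 and 260.2 normalised CPM (counts scaled to library size with TMM factors) in shCCT2 1, 2 and 3, against 629.9 in shCtrl 1 and 642.4 in shCtrl 2. At an adjusted p under 0.05 (edgeR, Benjamini-Hochberg over the 13123 genes), 0 genes passed as higher (0%) and 0 as lower (0%) in shCCT2. CCT2 itself, with a fitted log2 change of -1.215 ± 0.182 (SE), did not pass (edgeR, unadjusted p = 0.000435, adjusted p = 0.542). At an unadjusted p under 0.05, 371 genes were higher (2.83%) and 598 lower (4.56%), and DESeq2 called 17 genes (0.130%). CCT2 was among those that DESeq2 called (Wald test, adjusted p = 3.81e-05). All 8 squamous epithelial markers were detected in every library, with summed levels of 3217, 4249 and 2041 CPM in the shCCT2 libraries and 5027 and 1327 CPM in shCtrl 1 and 2. The markers did not all follow one pattern across the tables. In shCtrl 2, KRT5, KRT14, KRT17, EPCAM, CDH1, TP63 and SFN were lower than in shCtrl 1, and KRT6A was higher. KRT5, KRT14, KRT17 and EPCAM lay below all of set A in both set B libraries. The epithelial cadherin gene CDH1 stood at 24.9 CPM in shCCT2 3 and 10.6 CPM in shCtrl 2, below the 185.4 to 251.5 CPM of set A. The keratin gene KRT6A stood at 630.4 CPM in shCCT2 3 and 64.8 CPM in shCtrl 2, above the 40.2 to 45.9 CPM of set A. TP63 (202.1 CPM) and SFN (481.2 CPM) lay within the range of set A in shCCT2 3. In shCtrl 2 they lay below it, at 115.6 and 292.4 CPM. Markers of fibroblasts and of endothelium summed to at most 11.8 and 7.48 CPM in any library. The leukocyte list summed to between 45.1 and 178.3 CPM, chiefly CD68 and, in set A, LCP1. In set B, LCP1 stood at 1.42 CPM in shCCT2 3 and 1.17 CPM in shCtrl 2. The pan-leukocyte gene PTPRC reached at most 6.51 CPM.

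The 10 chaperone genes together made up 13910, 12430 and 6563 CPM in shCCT2 1, 2 and 3, against 10990 CPM in shCtrl 1 and 3334 CPM in shCtrl 2. In each set this sum was higher in the shCCT2 libraries than in their own shCtrl. HSP90AA1, HSP90AB1 and HSPA8 held most of the sum in every library. Higher values were seen for both HSP90 genes, the constitutive HSP70 gene HSPA8, the J-domain gene DNAJA1 and the exchange factor gene HSPH1, and lower ones for the exchange factor relative HSPA4L and, less evenly, for the stress-inducible HSPA1A and HSPA1B. None of the 10 passed in either direction in the edgeR fit (Benjamini-Hochberg adjusted p between 0.542 and 0.697 over all genes), nor DESeq2's Wald test. CCT2 itself did not pass in the edgeR fit either, so not passing does not show that a gene was unchanged. At an unadjusted p under 0.05 in the edgeR fit there were 2 of the 10, HSP90AA1 (higher) and HSPA4L (lower). Of all tested genes, 2.83% were higher and 4.56% lower at that threshold. Of the 10 genes, 5 were higher than their own shCtrl in all 3 shCCT2 libraries, against 20.2% of all tested genes. HSPA4L and HSPA1B, 2 of the 10, were lower in all 3, against 21.3%. HSPA1B had a log2 change of only -0.01 in shCCT2 2, and its reads were divided with HSPA1A. The sum of HSPA1A and HSPA1B was higher in that library, at 0.08. In shCCT2 3 alone, 7 of the 10 were higher than in shCtrl 2, against 48.8% of all tested genes. The 10 genes and the lists further below were chosen with earlier results of these data known. Such shares are therefore a description and not support. The changes in shCCT2 1 and 2 also share shCtrl 1 and are not separate.

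**Figure D1:**
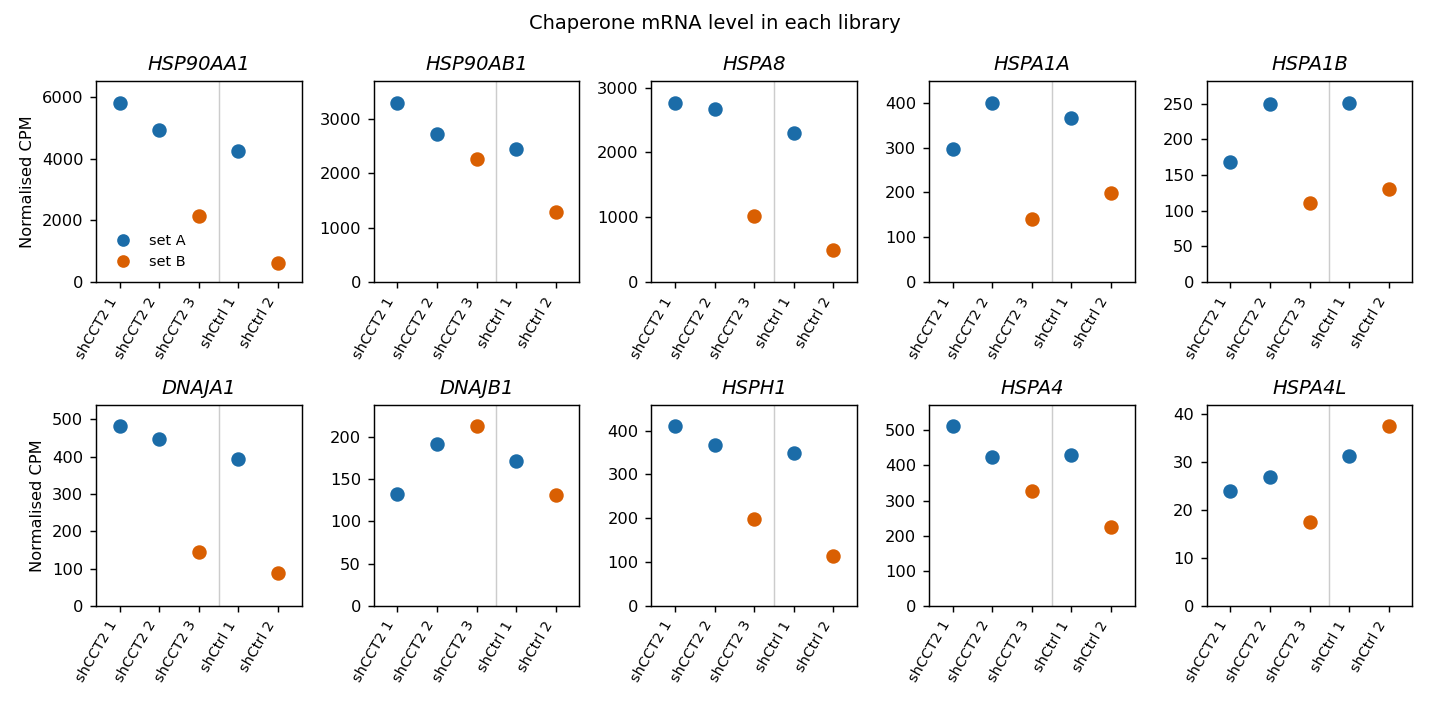
Normalised CPM (vertical axis, from 0, scaled per gene) of the 10 chaperone genes in the 3 shCCT2 and 2 shCtrl libraries, 1 point per library, coloured by set. HSP90AA1 is at 5824 CPM in shCCT2 1, its highest point, and at 619.3 CPM in shCtrl 2, its lowest, and HSPA4L is the 1 gene whose shCCT2 points all lie below both shCtrl points.

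HSP90AA1 encodes HSP90 alpha, the stress-inducible form of cytosolic HSP90. It stood at 5824, 4931 and 2141 CPM in shCCT2 1, 2 and 3, against 4263 CPM in shCtrl 1 and 619.3 CPM in shCtrl 2. Each shCCT2 library was above its own shCtrl, but shCCT2 3 was below shCtrl 1, so the groups overlapped. The log2 changes were 0.45, 0.21 and 1.79, and the fitted change was 0.93 ± 0.35 (SE, 3 shCCT2 and 2 shCtrl libraries), the largest of the 10 (edgeR, unadjusted p = 0.0365, adjusted p = 0.542). In shCCT2 3, 98.4% of tested genes had a smaller log2 change. The fitted change was 0.334 without shCtrl 2, 0.335 without shCCT2 3 and 1.82 without shCtrl 1. The table lists HSP90AA1 with non-whole counts in all 5 libraries. The counts of WDR20, which overlaps it on chromosome 14 in RefSeq, were non-whole too, and the counts of both genes summed to whole numbers (within 0.001) in each library. WDR20 held between 0.657% and 2.61% of that sum.

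HSP90AB1, which encodes the constitutive HSP90 beta, stood at 3295, 2710 and 2252 CPM in shCCT2 1, 2 and 3, against 2441 CPM in shCtrl 1 and 1291 CPM in shCtrl 2. Again each shCCT2 library was above its own shCtrl and shCCT2 3 was below shCtrl 1. The log2 changes were 0.43, 0.15 and 0.80 (fitted 0.51 ± 0.22, SE; edgeR, adjusted p = 0.542). Per kilobase of transcript, HSP90AA1 was 1.40, 1.44 and 0.752 times as abundant as HSP90AB1 in shCCT2 1, 2 and 3, against 1.38 times in shCtrl 1 and 0.380 times in shCtrl 2. The alpha form was thus above the beta form in all of set A and below it in both libraries of set B.

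HSPA8 encodes HSC70, the constitutive cytosolic HSP70 of all cells. It stood at 2770, 2677 and 1019 CPM in shCCT2 1, 2 and 3, against 2296 CPM in shCtrl 1 and 499.9 CPM in shCtrl 2. The set B pair lay below the whole of set A, and within each set shCCT2 was higher. The log2 changes were 0.27, 0.22 and 1.03, and the fitted change was 0.57 ± 0.24 (SE; edgeR, unadjusted p = 0.0514, adjusted p = 0.542). It was 0.25 without shCtrl 2 or shCCT2 3 and 1.06 without shCtrl 1.

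HSPA1A and HSPA1B encode the stress-inducible HSP70 and lie close together on chromosome 6. Their coding sequences in GENCODE 29 differ at 4 of 1923 bases (99.8% identity), and their transcripts are 88.4% identical. The deposited counts of both were non-whole in all 5 libraries and summed to a whole number (within 0.001) in each, so reads had been divided between them and the level of either alone is uncertain. HSPA1A took 63.9%, 61.6% and 55.7% of the summed count in shCCT2 1, 2 and 3, against 59.2% in shCtrl 1 and 60.3% in shCtrl 2. The sum is free of that division. It stood at 465.0, 650.1 and 251.0 CPM in shCCT2 1, 2 and 3, against 616.9 CPM in shCtrl 1 and 330.2 CPM in shCtrl 2. The 2 shCCT2 libraries of set A lay on either side of their control, and shCCT2 3 was below its own. The log2 changes of the sum were -0.41, 0.08 and -0.40, and the fit gave -0.25 ± 0.23 (SE; edgeR, adjusted p = 0.629). Taken singly, HSPA1A had a fitted change of -0.26 ± 0.23 and HSPA1B of -0.26 ± 0.23. The ratio of HSPA8 to HSPA1A plus HSPA1B, per kilobase, was 6.04, 4.18 and 4.12 in shCCT2 1, 2 and 3, against 3.77 in shCtrl 1 and 1.54 in shCtrl 2. That ratio was higher in each shCCT2 library than in either shCtrl library, a description with no test. The ratios of HSP90AA1 to HSP90AB1, HSPH1 to HSPA4 and DNAJA1 to DNAJB1 overlapped between the groups. No share over other ratios was computed, and of single tested genes 16.2% did not overlap, in either direction.

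**Figure D2:**
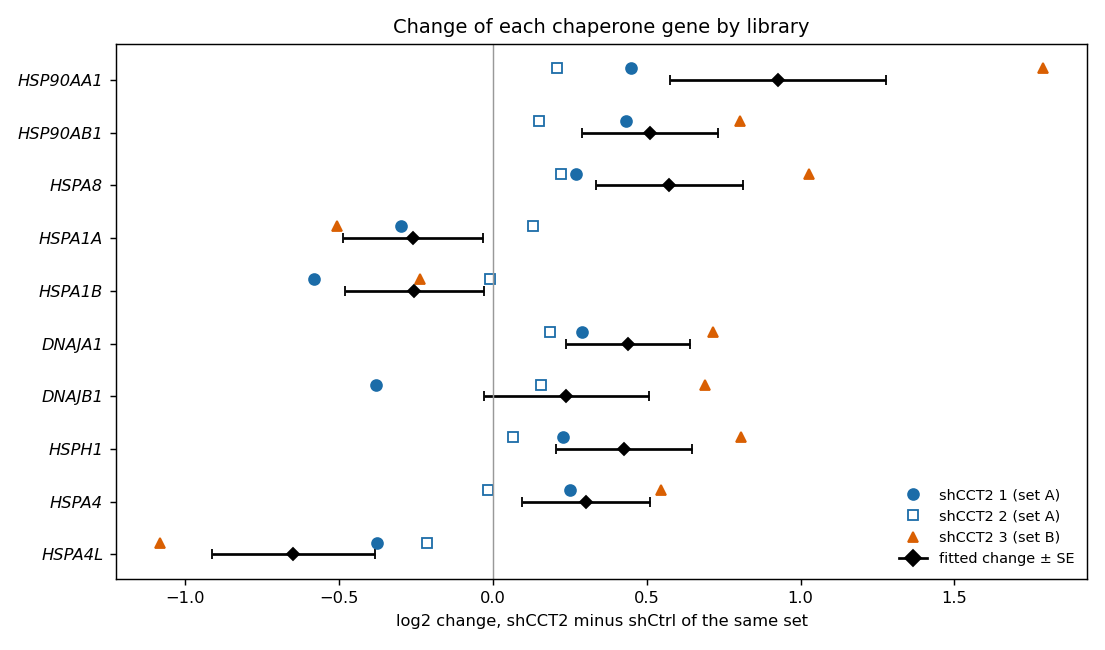
Log2 change of each chaperone gene (horizontal axis), shCCT2 minus the shCtrl of the same set, for shCCT2 1 (filled circle), shCCT2 2 (open square) and shCCT2 3 (triangle), with the change fitted over all 5 libraries and its SE (diamond and bar). The triangle of HSP90AA1 lies at 1.79 and that of HSPA4L at -1.08, the outermost points.

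DNAJA1 and DNAJB1 are the J-domain genes of the set. DNAJA1 encodes a class A J-domain partner of HSC70. It stood at 481.8, 448.2 and 144.9 CPM in shCCT2 1, 2 and 3, against 394.3 CPM in shCtrl 1 and 88.1 CPM in shCtrl 2. Its log2 changes were 0.29, 0.18 and 0.71 (fitted 0.44 ± 0.20, SE; edgeR, adjusted p = 0.542), all above 0. DNAJB1, the class B partner known as HSP40, stood at 131.8, 191.7 and 212.6 CPM in shCCT2 1, 2 and 3, against 171.7 CPM in shCtrl 1 and 131.6 CPM in shCtrl 2. The libraries were mixed. The log2 changes were -0.38, 0.16 and 0.69, and the fit gave 0.24 ± 0.27 (SE; edgeR, adjusted p = 0.697). The fitted change of DNAJB1 turned to -0.09 without shCCT2 3 or without shCtrl 2, when only set A contributes. DNAJB1 was also the 1 gene of the 10 whose highest value was that of shCCT2 3. Per kilobase, DNAJA1 was 3.48, 2.22 and 0.648 times as abundant as DNAJB1 in shCCT2 1, 2 and 3, against 2.18 times in shCtrl 1 and 0.636 times in shCtrl 2.

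The 3 remaining genes belong to the HSP110 family of exchange factors. HSPH1, which encodes the heat-inducible HSP105, stood at 409.9, 366.1 and 197.6 CPM in shCCT2 1, 2 and 3, against 350.0 CPM in shCtrl 1 and 112.7 CPM in shCtrl 2. Its log2 changes were 0.23, 0.07 and 0.81 (fitted 0.43 ± 0.22, SE; edgeR, adjusted p = 0.542). HSPA4, which encodes the constitutive APG-2, stood at 511.8, 425.3 and 328.0 CPM in shCCT2 1, 2 and 3, against 429.9 CPM in shCtrl 1 and 224.2 CPM in shCtrl 2. Here shCCT2 2 was at the level of its control, and the log2 changes were 0.25, -0.02 and 0.55 (fitted 0.30 ± 0.21, SE; edgeR, adjusted p = 0.563). The ratio of HSPH1 to HSPA4 per kilobase was 0.744, 0.800 and 0.560 in shCCT2 1, 2 and 3, against 0.757 in shCtrl 1 and 0.467 in shCtrl 2.

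HSPA4L, a close relative of HSPA4, had lower values in shCCT2. It stood at 23.9, 26.8 and 17.4 CPM in shCCT2 1, 2 and 3, against 31.1 CPM in shCtrl 1 and 37.4 CPM in shCtrl 2. All 3 shCCT2 libraries were below both shCtrl libraries, which held for 1 of the 10 genes and, in either direction, for 16.2% of all tested genes. The log2 changes were -0.38, -0.21 and -1.08 (fitted -0.65 ± 0.27, SE; edgeR, unadjusted p = 0.048, adjusted p = 0.542). The fitted change was -0.30 without shCtrl 2 or shCCT2 3 and -1.07 without shCtrl 1. HSPA4L had the fewest counts of the 10 in each library, 319 to 706, and its relative HSPA4 had 4228 to 8688.

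Per kilobase of transcript, the highest levels in all 5 libraries were those of HSP90AA1, HSP90AB1 and HSPA8. In shCCT2 1 they stood at 1724, 1232 and 1125 CPM per kilobase and in shCtrl 1 at 1262, 912.9 and 932.2, while in shCCT2 3 they stood at 633.6, 842.2 and 413.7 and in shCtrl 2 at 183.3, 482.8 and 203.0. HSP90AA1 thus led in shCCT2 1 and shCtrl 1, while HSP90AB1 led in both set B libraries. HSPA4L was lowest in all 5 libraries, between 1.61 and 3.47 CPM per kilobase. The other 6 lay between 21.7 and 202.4 CPM per kilobase.

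**Figure D3:**
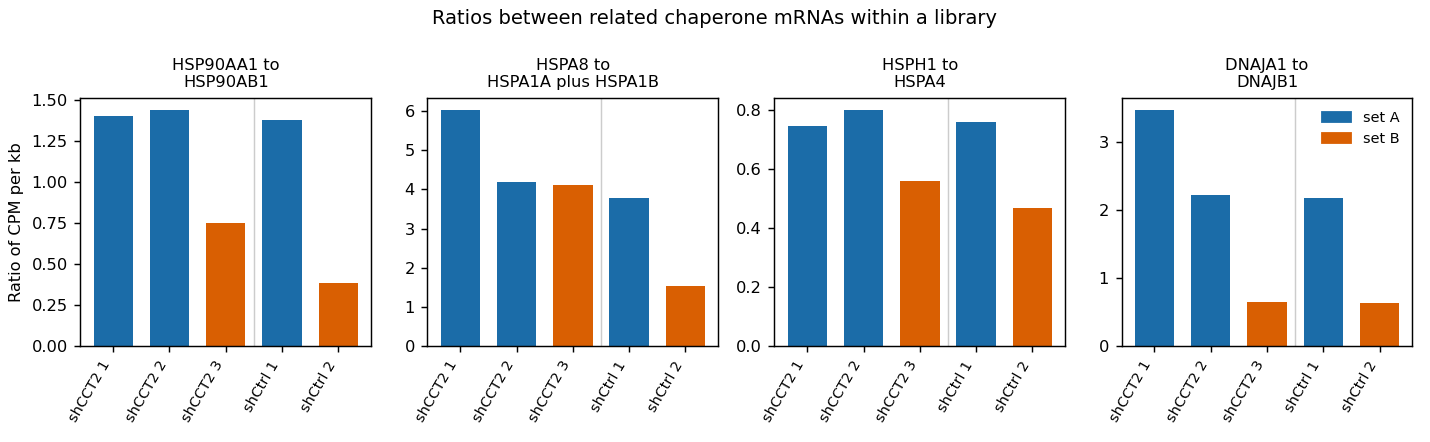
Ratio of CPM per kilobase between related chaperone mRNAs (vertical axis, from 0) in each library, bars coloured by set. The ratio of HSP90AA1 to HSP90AB1 is between 1.38 and 1.44 in the 3 set A libraries, 0.752 in shCCT2 3 and 0.380 in shCtrl 2.

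The sizes of the changes were then set side by side for the 2 tables. The median log2 change of the 10 genes was 0.24 in shCCT2 1, 0.14 in shCCT2 2 and 0.70 in shCCT2 3, while the medians of all tested genes were between -0.02 and 0.00. The fitted median was 0.36 for the 10 genes and -0.02 for all tested genes. It became 0.14 without shCtrl 2 or without shCCT2 3 and 0.73 without shCtrl 1. In shCCT2 3, 2 of the 10 genes, HSP90AA1 and HSPA8, were at least 2-fold above shCtrl 2, against 8.38% of all tested genes. The difference of the change between the tables was tested as an interaction of hairpin and table, which has 1 residual degree of freedom. Each combination of hairpin and table other than shCCT2 in set A holds 1 library, so the spread in this test comes from shCCT2 1 against shCCT2 2 alone, and the other libraries are assumed to vary like them. In the edgeR fit no gene passed after adjustment (0 of 13123, 0%, lowest adjusted p = 0.0932), while 2255 genes (17.2%) had an unadjusted p under 0.05. Of the 10, HSP90AA1 (1.46 ± 0.28 on the log2 scale, SE, set B minus set A, edgeR unadjusted p = 0.00202, adjusted p = 0.135) and HSPA8 (0.78 ± 0.26, edgeR unadjusted p = 0.0251, adjusted p = 0.235) were among those. The adjusted p of HSP90AA1 lay between 0.023 (edgeR without scaling factors, 1.38) and 0.373 over the 4 alternatives, and with that one source of spread the lowest of these is not read as a difference between the tables. For HSPA1B the interaction was 0.03 ± 0.43 and for HSP90AB1 0.50 ± 0.30 (SE), and no other of the 10 genes had an adjusted p under 0.3.

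The control libraries themselves differed. In shCtrl 2, 9 of the 10 genes were lower than in shCtrl 1, HSPA4L being the exception at 0.26 on the log2 scale. HSP90AA1 was lower by a log2 difference of -2.78, HSPA8 of -2.20, DNAJA1 of -2.16 and HSPH1 of -1.63. These 4 were the genes at least 2-fold lower in shCtrl 2 than in shCtrl 1, against 12.4% of all tested genes. The median over the 10 was -0.94, against -0.002 over all tested genes, of which about as many were lower as higher in shCtrl 2. The median of the squamous markers was -1.60 and that of the HSP90 co-chaperones -0.36. The labels describe both controls alike, so the table and whatever else separated the controls cannot be told apart, and with 1 library each no test was made. The changes in set B are set against the same shCtrl 2 and share its value with this difference.

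The share of reads in the last 20% of transcript windows was 14.3%, 15.8% and 14.6% in shCCT2 1, 2 and 3, against 17.3% in shCtrl 1 and 15.8% in shCtrl 2. It was lower in both set A knockdowns and in shCCT2 3 than in the matching control, and its part in the changes was not tested.

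Other genes of the same chaperone systems were examined as lists. None of their genes passed edgeR's test over all genes in either direction, as for all genes (0%), so the values below are those of genes that did not pass. The co-chaperones of HSP90 had a higher fitted value for 12 of 14 genes, against 48.5% of all tested genes, with medians of 0.25, -0.01 and 0.52 in shCCT2 1, 2 and 3 and a fitted median of 0.26. AHSA1, which stimulates the HSP90 ATPase, had a fitted log2 change of 0.40 ± 0.20 (SE). NUDC, which has a p23-like domain, had 0.43 ± 0.23, TTC4 had 0.43 ± 0.22 and AARSD1 had 0.61 ± 0.27. In shCCT2 2, 6 of the 14 were higher.

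The co-chaperones and exchange factors of HSP70 had 5 of 9 genes higher, near that share of all tested genes, and a fitted median of 0.03. BAG3, the stress-inducible BAG protein that links HSP70 to autophagy, was lower in each shCCT2 library than in its own shCtrl, at 159.0, 177.0 and 76.9 CPM against 201.2 CPM in shCtrl 1 and 118.9 CPM in shCtrl 2 (fitted -0.42 ± 0.19, SE). BAG1, BAG2 and BAG5 had fitted changes of 0.52 ± 0.31, 0.40 ± 0.29 and 0.45 ± 0.24. For BAG1 the log2 changes were 0.03, 0.03 and 1.19, so set B gave nearly all of it.

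Of 11 other cytosolic J-domain genes, 7 had a higher fitted value, against 48.5% of all tested genes, with a median of 0.23. DNAJC9, which is also a histone chaperone, stood at 159.5, 125.4 and 147.7 CPM in shCCT2 1, 2 and 3, against 103.3 CPM in shCtrl 1 and 48.6 CPM in shCtrl 2. The groups did not overlap, as for 16.2% of all tested genes, and the fitted change was 0.93 ± 0.30 (SE; edgeR, unadjusted p = 0.0193, adjusted p = 0.542). The ribosome-associated DNAJC2 had 0.46 ± 0.19, DNAJA4 had 0.63 ± 0.36 and DNAJB5 had -0.61 ± 0.33.

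The other cytosolic HSP70 genes were HSPA2, HSPA14 and HSPA1L, with fitted changes of 0.10 ± 0.31, 0.38 ± 0.23 and -0.77 ± 0.54 (SE), and the strictly stress-inducible HSPA6, which was too low to test at no more than 0.530 CPM in any library. HSPA1L was low too, at no more than 2.97 CPM in any library.

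**Figure D4:**
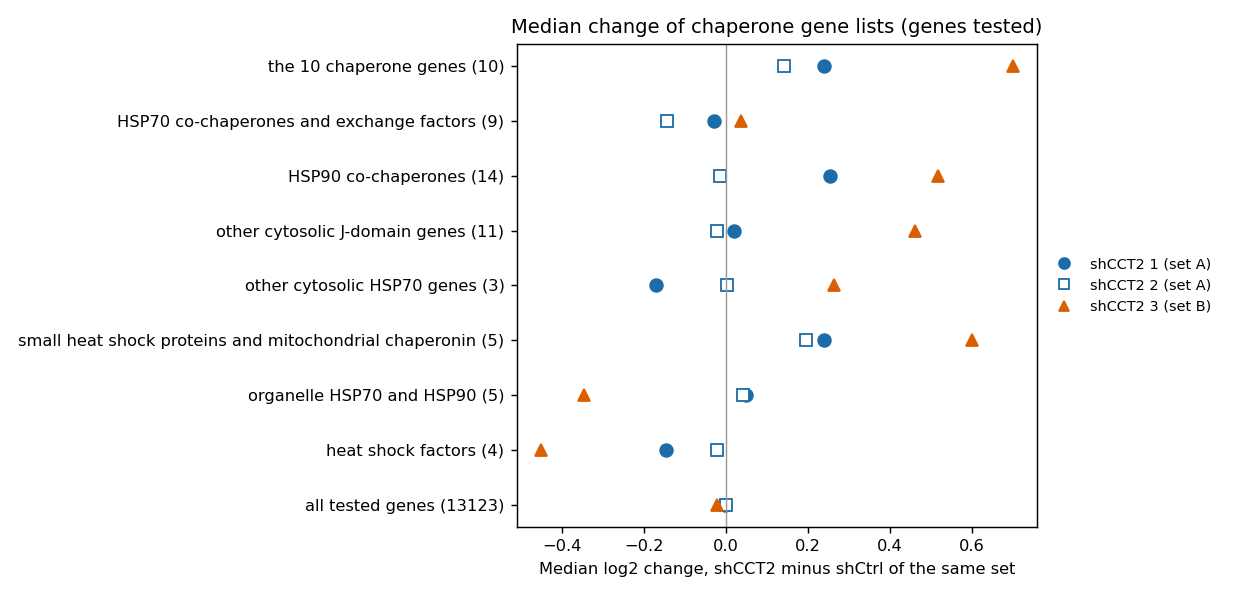
Median log2 change (horizontal axis), shCCT2 minus the shCtrl of the same set, of the chaperone gene lists, with the number of tested genes in brackets; symbols are the 3 shCCT2 libraries. The 10 chaperone genes lie at 0.24, 0.14 and 0.70 in shCCT2 1, 2 and 3, and the organelle list lies at -0.34 in shCCT2 3.

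Of the heat shock genes outside the HSP70 and HSP90 families, the mitochondrial chaperonin genes HSPD1 and HSPE1 were higher, and the small heat shock gene HSPB1 lower, in each shCCT2 library than in its own shCtrl. HSPD1, which encodes HSP60, stood at 1859, 1588 and 845.1 CPM in shCCT2 1, 2 and 3, against 1386 CPM in shCtrl 1 and 536.5 CPM in shCtrl 2 (fitted 0.46 ± 0.20, SE). Its partner gene HSPE1, which encodes HSP10, had log2 changes of 0.37, 0.20 and 1.02 (fitted 0.60 ± 0.23; edgeR, unadjusted p = 0.0387, adjusted p = 0.542). HSPB11 had a fitted change of 0.36 ± 0.21. HSPB1, which encodes HSP27, stood at 443.0, 555.5 and 52.5 CPM in shCCT2 1, 2 and 3, against 576.3 CPM in shCtrl 1 and 306.4 CPM in shCtrl 2. The value in shCCT2 3 was far below the others. The log2 changes were -0.38, -0.05 and -2.54 (fitted -1.25 ± 0.55, SE; edgeR, unadjusted p = 0.0605, adjusted p = 0.542).

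The HSP70 and HSP90 genes of organelles showed no common direction, with 3 of 5 higher, against 48.5% of all tested genes, and a fitted median of 0.01. The endoplasmic reticulum HSP90 gene HSP90B1 stood at 1197, 1195 and 408.8 CPM in shCCT2 1, 2 and 3, against 1160 CPM in shCtrl 1 and 1127 CPM in shCtrl 2, so that shCCT2 3 alone was low. HSPA5, the endoplasmic reticulum HSP70, had -0.29 ± 0.20, the mitochondrial HSPA9 had 0.34 ± 0.22 and the mitochondrial HSP90 gene TRAP1 had 0.17 ± 0.20 (fitted, SE). The transcription factor gene HSF1 stood at 152.5, 150.2 and 201.5 CPM in shCCT2 1, 2 and 3, against 160.5 CPM in shCtrl 1 and 195.8 CPM in shCtrl 2 (fitted -0.03 ± 0.17, SE). HSF2 had -0.53 ± 0.26, HSF4 had -0.73 ± 0.58 and HSBP1, which encodes a small HSF1-binding protein, had 0.06 ± 0.18. HSF4 was low, at no more than 6.20 CPM, and mixed, with log2 changes of -0.738, 0.267 and -1.235 in shCCT2 1, 2 and 3. These are mRNA levels, and the activity of HSF1, which is set by its phosphorylation and assembly into trimers, was not measured.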

How the data were processed

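The authors deposited 2 tables of gene read counts, which are expected counts, as only 86.2% to 87.9% of the values of a library were whole. The submitters' processing notes list the tools HTSeq and STAR 1.5.1 and a mouse build, mm10, with no roles, although gene identifiers carry a human taxon prefix. The build and annotation behind the counts are not given in the sources used here. Coordinates belong to RefSeq's promoter table alone. The authors also deposited a signal of reads by window along transcripts, per the file headers.

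The tables were joined on gene_id (763 and 1032 genes stood in 1 table only and were not tested), and expected counts were rounded. edgeR 4.0.16 in R 4.3.3 was fitted on all genes with TMM scaling, filterByExpr by group, and terms for hairpin and table (2 residual degrees of freedom, common biological coefficient of variation 0.255). p-values were Benjamini-Hochberg adjusted over all genes. The SE is the fitted log2 change over the square root of F. Log2 changes of single libraries used TMM-scaled CPM plus 0.5. Levels per kilobase used the principal transcript of each gene in GENCODE 29. The fit was tested on simulated data, where it recovered the sizes of the changes but edgeR, DESeq2 and the interaction test each made more false calls at some fold sizes than the threshold allows. No pair of libraries agreed within sampling noise (chi-square per degree of freedom at least 19.4).

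The members and lists were chosen with earlier results of these data known. Named were the 10 genes, CCT2, marker lists and up to 4 genes per other list by the smallest unadjusted p. Alternatives were other scalings, DESeq2 1.42.0, other filters on low counts, leaving out the table term or each library, a replicate block, and HSPA1A and HSPA1B summed.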

Additional observations from a re-analysis of the deposited data

Results flagged for a closer look

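Among the named genes and the markers, those below had both set A knockdown libraries on one side of their control and the set B knockdown on the other. Some genes of the other chaperone lists that are not named had this pattern too. Its share over all tested genes was not counted, so the genes below are not singled out by it. HSP90B1 had log2 changes of 0.05 and 0.04 in shCCT2 1 and 2 and of -1.46 in shCCT2 3, and the interaction of hairpin and table was -1.51 on the log2 scale (edgeR, unadjusted p = 0.00188, adjusted p = 0.135). HSF1 had -0.07, -0.10 and 0.04, with an interaction of 0.13 (edgeR, adjusted p = 0.847). Tested were 8 squamous, 3 leukocyte, 2 endothelial and 2 fibroblast markers, and the same held for 7 of them. On the log2 scale, the interaction was 1 for KRT5, 0.438 for KRT14, 1.57 for CDH1 and 1.11 for TP63. It was 1.49 for LCP1, 1.77 for VWF and -8.60 for PTPRC. PTPRC had 1 count in both shCCT2 3 and shCtrl 1, so its value depends on how low counts are treated. None of these 9 interactions passed after adjustment over all genes (edgeR, lowest adjusted p = 0.135), and all rest on the spread between shCCT2 1 and 2. Groups of 2 and 3 libraries are too small to single out 1 library as outlying.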

How the results depend on the processing

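None of the 10 genes passed in any of the 122 combinations of gene and alternative, and 118 kept the sign of the fitted change. The alternatives reuse the same 5 libraries and are not separate checks, so a kept sign is not repeated evidence. Without shCCT2 3 or without shCtrl 2, the fit rests on set A alone in both cases. HSPA1A and HSPA1B turned to 0.34 and 0.16 with the replicate number as a block in place of the table. That fit left out shCCT2 3, which has no shCtrl of its number. It set shCCT2 2 of set A against shCtrl 2 of set B, so its estimates include the difference between the sets. DNAJB1 turned to -0.09 (-0.086 and -0.087) without shCCT2 3 or shCtrl 2, with a highest value of 0.721 over the libraries left out. The median of the 10 genes ran from 0.14 to 0.73 (0.136 to 0.735) over the libraries left out. DESeq2's Wald test called 3 genes higher and 14 lower where edgeR called 0 and 0. With single libraries left out, edgeR called 0 higher and between 0 and 2 lower genes. The interaction of hairpin and table called 0 genes with TMM, 575 without scaling factors and 54 with the stricter filter on low counts. The replicate numbers do not follow the tables, as shCtrl 2 and shCCT2 2 are in different ones. Same-numbered libraries deviated from their group means with correlations of 0.685 (number 1) and -0.602 (number 2). For shCCT2 3 and shCtrl 2, both in set B, the correlation was 0.734. The deviations of the 2 shCtrl libraries mirror each other, so these correlations are not separate checks of pairing. With that replicate block, 0 genes passed in either direction and the median of the 10 genes was 0.65. Each of the 10 genes had at least 319 counts in every library.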
